A study of Mus musculus with 8 samples.

Results

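The Bardet-Biedl syndrome genes are the subunits of the BBSome and the chaperonin-like proteins that assemble it. Their transcripts were measured in whole mouse embryos at E11.5 that carried a low-expression allele of Ott1, the RNA-binding protein gene now named Rbm15. Members were found as gene probes whose RefSeq accession is a transcript of 1 of 10 genes: the BBSome subunits Bbs1, Bbs2, Bbs4, Bbs5, Bbs7, Bbs9 and Ttc8, and the chaperonins Mkks, Bbs10 and Bbs12. A probe was matched for 8 of the 10 genes, 1 each, out of 34967 gene probes and 13971 named genes on the array. No probe was matched to Bbs1 or Bbs10, which are not analysed here. The 8 probes comprised 6 of the 7 BBSome subunits asked about and 2 of the 3 chaperonins. The BBSome gene Bbip1, listed with the other syndrome genes below, matched no probe either.

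The embryos were 3 homozygous for the low-expression allele (embryos 2, 7 and 16), 3 heterozygous (embryos 3, 10 and 15) and 2 wild type (embryos 11 and 13), and each was read on its own array. Mice carrying the allele were mated and the embryos genotyped. The labels call the embryos of all 3 genotypes Ott1 knockdown and give no strain, sex, litter or construct. In RNA of whole embryos fewer cells of a type and less RNA per cell cannot be told apart.

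The BBSome is a coat-like complex that carries membrane receptors out of the primary cilium, the antenna-like organelle through which embryonic cells read Hedgehog and other signals. Mkks, Bbs10 and Bbs12 belong to the family of the cytosolic chaperonin CCT and work with it to build the BBSome core around Bbs2, Bbs7 and Bbs9. In people, loss of these genes causes Bardet-Biedl syndrome, with retinal degeneration, obesity, kidney disease and extra digits.

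The genes were chosen because Ccdc28b, known in people as a modifier of Bardet-Biedl syndrome, is nearly lost in homozygous embryos. Its log2 normalized intensity was 4.78, 4.26 and 3.68 in homozygous embryos 2, 7 and 16, against 8.44, 8.51 and 8.76 in heterozygous and 8.58 and 8.56 in wild type embryos. It was above background in 1 of the 3 homozygous embryos and in all 5 others. The members were chosen by this low Ccdc28b level in homozygous embryos, so it is given without a test. For the same reason the members' own values in homozygous embryos are a description, and counts of probes past a threshold there are read as no evidence for or against a response.

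RefSeq promoter sequences (GRCm38.p6, from 250 bases before to 50 after the start site, 5′ to 3′) were listed for all 10 genes. They were searched on both strands for the X-box, the site of RFX transcription factors, which drive ciliary genes including the worm counterparts of Bardet-Biedl genes. The half-site GTTGCC was found in 3 of the 10 promoters, those of Bbs1, Bbs5 and Bbs7, against 12.5% of 32851 mouse promoters of that length. The inverted repeat of GTTNCC, 2 bases and GGNAAC, whose ends can overlap the half-site, was found in 1, that of Bbs7, against 0.451% of all. Its first base lies at position -121 from the start site. Shown are the promoters of Bbs12 and Bbs9, whose levels did not overlap between homozygous and other embryos, and of Bbs7, which holds the repeat, all picked after their values were seen. They lie at chr3:37312304-37312603 on the plus strand, chr9:22475465-22475764 on the plus strand and chr3:36613340-36613639 on the minus strand. Capitals mark the repeat, and the other sequences hold neither motif in this window.
Bbs12: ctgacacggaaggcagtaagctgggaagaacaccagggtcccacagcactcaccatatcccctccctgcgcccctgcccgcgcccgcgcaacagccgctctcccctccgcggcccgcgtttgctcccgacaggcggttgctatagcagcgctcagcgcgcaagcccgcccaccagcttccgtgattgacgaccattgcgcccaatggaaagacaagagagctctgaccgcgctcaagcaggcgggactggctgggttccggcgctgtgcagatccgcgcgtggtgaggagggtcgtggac
Bbs9: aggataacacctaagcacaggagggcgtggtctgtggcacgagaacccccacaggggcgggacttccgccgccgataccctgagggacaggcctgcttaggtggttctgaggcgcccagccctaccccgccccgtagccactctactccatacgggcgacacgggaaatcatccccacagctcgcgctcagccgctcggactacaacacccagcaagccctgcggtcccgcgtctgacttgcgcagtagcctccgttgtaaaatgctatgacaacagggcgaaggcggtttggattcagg
Bbs7: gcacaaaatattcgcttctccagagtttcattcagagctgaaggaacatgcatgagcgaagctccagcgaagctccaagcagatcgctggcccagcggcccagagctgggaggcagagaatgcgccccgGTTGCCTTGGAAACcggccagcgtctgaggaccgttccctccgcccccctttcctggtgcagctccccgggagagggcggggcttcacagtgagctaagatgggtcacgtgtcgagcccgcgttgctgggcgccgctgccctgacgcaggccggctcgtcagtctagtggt
A match is a run of letters and was not tested for binding. GC content was 66.7%, 62.7% and 63.3% in these picked promoters, against a median of 52.7% over all promoters. In the promoters of the other members it ran from 50.3% for Bbs1 to 64.7% for Bbs10. Bbs12 and Bbs7 lie close together on chromosome 3, with 6 protein-coding genes between them. Rbm15 lies on the same chromosome, with 587 protein-coding genes between Bbs12 and Rbm15.

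All 3 homozygous arrays were brighter than the others before normalization, with a median gene intensity of 60.0 to 84.5, against 48.4 to 57.8 in the 5 other embryos. The array of homozygous embryo 16 stood apart, with 26619 gene probes above background against 22526 to 23721 on the 7 other arrays. Member differences are therefore also given without it. Array brightness and homozygosity cannot be told apart. Markers of neurons (5 of 5), neural progenitors (4 of 4), skeletal muscle (4 of 4), liver (3 of 3) and embryonic red cells (4 of 5) passed the filter on dim probes, while 1 of 4 trophoblast markers did. These counts are over listed markers, and those with no probe, such as Hbb-bh1 and Prl2c2, count as not passing. For macrophages 3 of 5 passed, for multiciliated cells 3 of 5 and for cardiomyocytes 2 of 4. No probe was matched to Rbm15, so the targeted gene was not checked.

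All 8 member probes were above background on all 8 arrays, none had a marked spot, and all 8 passed the filter, so no member was left out of the tests. The ratio of spot to local background was 2.17 to 3.59 for Bbs12 and 5.02 to 27.1 for the 7 others, which makes Bbs12 the member read closest to background. Levels below are log2 normalized intensities, and each difference is on that scale. A probe's level is set against the same probe in other embryos, never against another probe. The arrays, 2 or 3 per genotype, limit the precision of every value.

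In homozygous embryos against the 5 others, 0 of the 8 member probes passed an adjusted p of 0.05 in limma, where 0.107% of 23388 tested probes did (25 probes). At an unadjusted p under 0.05 there were 2 members, Bbs12 and Bbs9, both lower, where 13.4% of tested probes were lower and 6.63% higher at that level, 20.0% in all. Groups did not overlap for these 2 members, both lower in homozygous embryos, against 9.51% of probes that lay lower without overlap and 14.2% that did not overlap in either direction. The median member difference was -0.17, against -0.06 over all tested probes, and 5 of 8 members had a negative sign. Against wild type alone 0 members passed (0.0342% of probes did, and 15.3% at an unadjusted p under 0.05), 1 of 8 had an unadjusted p under 0.05 and 7 had a negative sign. Bbs4, Bbs9, Mkks and Bbs12 lay below both wild type embryos in every homozygous embryo, 4 of 8 where 25.0% of probes did. Against heterozygous embryos 0 members passed (0.0214% of probes did, and 11.6% at an unadjusted p under 0.05), 1 had an unadjusted p under 0.05, 6 had a negative sign, and 2 lay lower without overlap where 12.5% of probes did. These 3 comparisons share the homozygous arrays and are not independent. The plot of levels by embryo shows the values behind these counts.

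**Figure D1:**
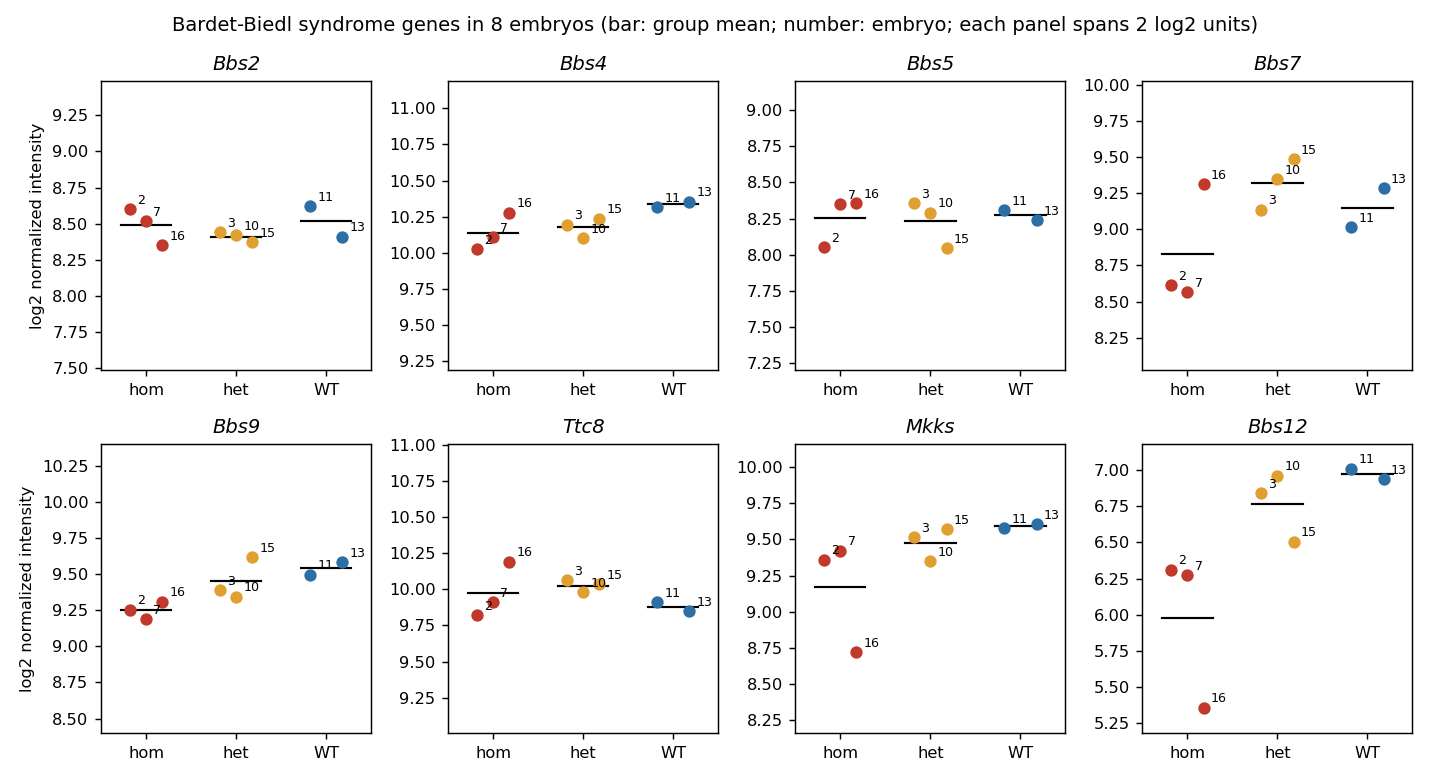
Log2 normalized intensity (vertical axis) of the 8 measured Bardet-Biedl syndrome genes in homozygous (hom), heterozygous (het) and wild type (WT) embryos; points are embryos with their numbers, bars are group means, and each panel spans 2 log2 units. Bbs12 and Bbs9 lay lower in every homozygous embryo than in any other, and embryo 16 stood away from embryos 2 and 7 for Bbs7, Mkks and Bbs12.

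Among the BBSome subunits that form its core, Bbs9 had a log2 level of 9.25, 9.19 and 9.31 in homozygous embryos 2, 7 and 16, against 9.39, 9.34 and 9.62 in heterozygous and 9.50 and 9.58 in wild type embryos. All 3 homozygous values lay below the 5 others, and the gap between the groups was small, with the highest homozygous embryo at 9.31 and the lowest other embryo at 9.34. The difference was -0.24 (SE 0.10), or 1.18-fold lower in homozygous embryos. Without embryo 16 it was -0.27. Under cyclic loess the groups overlapped, with homozygous embryos at up to 9.32 and the others from 9.30. There 1 member, Bbs12, lay lower without overlap, where 6.87% of probes did.

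Bbs7, which pairs with Bbs2 in the core, had a level of 8.61, 8.56 and 9.31 in homozygous embryos 2, 7 and 16, against 9.13, 9.35 and 9.49 in heterozygous and 9.02 and 9.28 in wild type embryos. Embryos 2 and 7 lay below all 5 others, while embryo 16 lay inside their range. The difference was -0.42 (SE 0.19), 1.34-fold lower in homozygous embryos, and -0.67 without embryo 16.

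Bbs2 showed no such pattern. Its level was 8.60, 8.52 and 8.35 in homozygous embryos, against 8.44, 8.42 and 8.37 in heterozygous and 8.62 and 8.41 in wild type embryos, and the groups overlapped. The difference was 0.04 (SE 0.10), and 0.105 without embryo 16.

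Bbs4, a tetratricopeptide-repeat subunit that binds the centriolar satellite protein Pcm1, was at 10.02, 10.11 and 10.28 in homozygous embryos, against 10.19, 10.10 and 10.23 in heterozygous and 10.32 and 10.35 in wild type embryos. The homozygous values lay below both wild type embryos and overlapped with the heterozygous ones. The difference from the 5 others was -0.10 (SE 0.10), or -0.18 without embryo 16, and from wild type -0.20 (SE 0.12). Ttc8, the other tetratricopeptide-repeat subunit, also known as BBS8, was at 9.82, 9.91 and 10.19 in homozygous embryos, against 10.06, 9.98 and 10.03 in heterozygous and 9.91 and 9.85 in wild type embryos. Homozygous embryos held both its lowest and its highest value, the highest being embryo 16. The difference was 0.01 (SE 0.11), and -0.10 without embryo 16. Bbs5, a subunit that binds phosphoinositide lipids, was at 8.05, 8.35 and 8.36 in homozygous embryos, against 8.35, 8.29 and 8.04 in heterozygous and 8.31 and 8.24 in wild type embryos, with groups that overlapped and a difference of 0.00 (SE 0.11), or -0.05 without embryo 16.

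The signs of Bbs2, Bbs5 and Ttc8 rest on the scaling. With median scaling their differences were -0.18, -0.20 and -0.27, and with the deposited values -0.21, -0.24 and -0.30. The median of all tested probes moved with them, to -0.25 in the deposited table and -0.22 with median scaling, against -0.06 here. The other members moved too: with median scaling Bbs4 was at -0.39, Bbs7 at -0.67, Bbs9 at -0.48, Mkks at -0.59 and Bbs12 at -0.88. Set against those medians, Bbs2 and Bbs5 lay above and Ttc8 below in both settings. Under median scaling 6 of 8 members lay lower without overlap, where 16.3% of all probes did, and in the deposited table the 17.8% of probes that did so again included 6 members. Both settings divide each array by 1 factor, so they are not separate checks.

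Both measured chaperonins were lower on average in homozygous embryos. Bbs12 had a level of 6.31, 6.27 and 5.36 in homozygous embryos 2, 7 and 16, against 6.84, 6.96 and 6.50 in heterozygous and 7.01 and 6.94 in wild type embryos. All 3 homozygous values lay below all 5 others under quantile normalization, under cyclic loess and with 1 factor per array (median scaling, the deposited table). Normexp keeps the order of spots on an array before the same quantile step. Its lack of overlap is therefore no separate check. The difference was -0.87 (SE 0.23), 1.83-fold lower in homozygous embryos, and 1.47% of tested probes had a lower one. Without embryo 16 it was -0.58, and with normexp and an offset of 50, which compresses dim probes, -0.52. The lowest level of any probe above background was 3.40 on the array of embryo 16 and 4.28 to 4.56 on every other array. Bbs12 was also lowest in embryo 16, and the part of this in its difference was not tested. Before normalization the groups overlapped: background-corrected intensities were 81.3, 81.7 and 62.2 in homozygous embryos 2, 7 and 16, against 117, 105 and 73.8 in heterozygous and 129 and 123 in wild type embryos.

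Mkks, also known as BBS6, was at 9.36, 9.42 and 8.72 in homozygous embryos 2, 7 and 16, against 9.51, 9.35 and 9.57 in heterozygous and 9.58 and 9.60 in wild type embryos. Embryo 16 alone was far below the rest, and embryos 2 and 7 overlapped with heterozygous embryo 10. The difference was -0.36 (SE 0.16), 1.28-fold lower in homozygous embryos, and -0.13 without embryo 16.

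**Figure D2:**
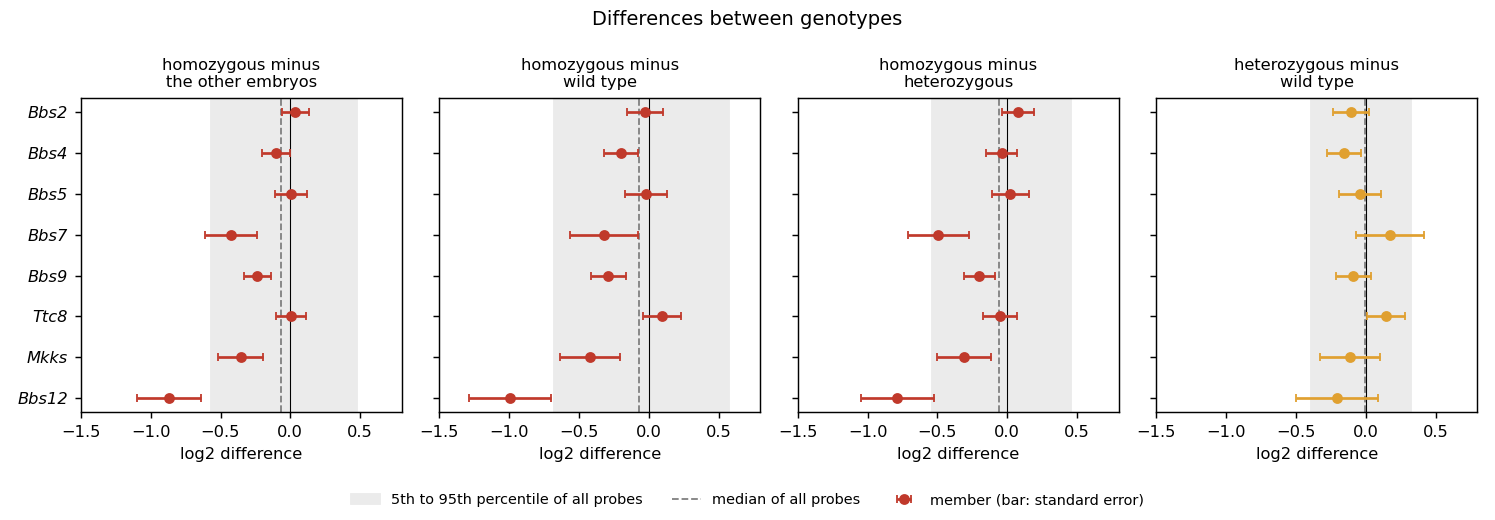
Log2 difference (horizontal axis) of each of the 8 genes in 4 comparisons; points are limma estimates, bars their standard errors, the dashed line is the median and the grey band the 5th to 95th percentile of all tested probes. Bbs12 lay outside the band in the 3 comparisons of homozygous embryos and inside it in heterozygous against wild type.

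The members did not move as one across embryos. Over 28 pairs of genes, Pearson's r over the 8 embryos ranged from -0.77 (Bbs7 and Bbs2) to 0.87 (Bbs12 and Mkks), with a median of 0.08 and 15 positive pairs. These values describe 8 embryos of 3 genotypes read on shared arrays, so pairs share both genotype and array effects. Bbs12 and Mkks were both lowest in embryo 16, at 5.36 and 8.72, and their r without it was not computed. The mean of the members' levels, each centred on its own mean, was -0.16, -0.12 and -0.18 in homozygous embryos 2, 7 and 16, against 0.08, 0.06 and 0.07 in heterozygous and 0.12 and 0.12 in wild type embryos. Of the 8 members, 7, 5 and 4 lay below their own mean in homozygous embryos 2, 7 and 16. These counts were 3, 4 and 3 in heterozygous and 2 and 3 in wild type embryos. Bbs12 had the widest range of all members over the embryos, 1.65, against 0.27 to 0.92 for the 7 others. Levels were centred but not scaled, so Bbs12 weighs most in the mean. Ccdc28b, whose loss set the choice of members, is among the probes most like this mean, which is a description. Both split the homozygous from the other embryos, so a high r follows from that split and shows no further tie. Among 10831 named probes with no missing value, the 5 most like it were Ccdc12 (r = 0.99), Ovol1 (0.98), Trim62 (0.98), Ccdc28b (0.98) and Mrps18c (0.97), over 8 embryos. All 5 had a negative difference in homozygous embryos, from -4.33 for Ccdc28b to -0.24 for Ccdc12.

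Heterozygous against wild type holds no homozygous embryo, so the choice of members did not use this difference. Its spread is estimated over all 3 genotypes, the homozygous embryos included. No member passed: limma's adjusted p was 0.9999 for each of the 8, the count was 0 of 8 at an unadjusted p under 0.05, and 0 of 23387 tested probes passed (0%, and 2.30% at an unadjusted p under 0.05, which is 538 probes). The largest difference in size was that of Bbs12, -0.21 (95% interval -0.89 to 0.48). Bbs7 was at 0.17 (-0.39 to 0.74), Bbs4 at -0.16 (-0.44 to 0.12) and Ttc8 at 0.15 (-0.17 to 0.46). In a fit of these 2 genotypes alone the differences were the same, the adjusted p was 0.9952 for each member, and the interval of Bbs12 was -0.60 to 0.19, that of Bbs7 -0.21 to 0.55. The intervals of the 8 members leave room for changes in either direction. In 3 of 8 members the 3 heterozygous and 2 wild type values did not overlap, Ttc8 higher and Bbs4 and Mkks lower in heterozygous embryos, where 9.05% of all probes lay higher and 10.3% lower in that way, 19.4% in all. The direct difference between homozygous and heterozygous embryos was -0.79 (SE 0.26) for Bbs12, -0.49 (SE 0.22) for Bbs7, -0.31 (SE 0.19) for Mkks and -0.20 (SE 0.11) for Bbs9.

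Other genes around the BBSome were followed in 10 lists of 97 genes, of which 66 were tested: 0 passed over all probes in any of the 4 comparisons. In homozygous against the other embryos, 12 of the 66 had an unadjusted p under 0.05, all lower (18.2%, where 13.4% of all probes were lower at that level). Their median difference was -0.08, against -0.06 over all probes, and 40 of 66 had a negative sign. The signs rest on the scaling: 38 were negative under cyclic loess, 40 under normexp, 58 with median scaling and 61 with the deposited values. The median of the IFT-A, motor and transition zone lists below is positive here and under cyclic loess and normexp, and negative with the deposited values and median scaling; that of the Hedgehog list is positive under cyclic loess alone. With median scaling 21 of the 66 lay above the median of all probes, where 32 do here. Where no value was missing, 9 of 59 lay lower and 1 higher in every homozygous embryo than in any other, against 9.51% and 4.71% of all probes.

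Among the other genes whose human counterparts cause the syndrome, 8 of 12 were tested, 0 passed and 6 had a negative sign, with a median of -0.16. Wdpcp, a planar cell polarity effector of the cilium base, had the lowest difference, -0.76 (SE 0.28). Its level was 6.80, 5.62 and 5.83 in homozygous embryos, against 6.92, 6.37 and 6.82 in heterozygous and 7.18 and 6.92 in wild type embryos, with homozygous embryo 2 above heterozygous embryo 10. The ubiquitin ligase gene Trim32 had the highest, 0.18 (SE 0.09). Arl6, the small GTPase that recruits the BBSome to membranes, also picked after its values were seen, was at -0.29 (SE 0.12), and -0.19 without embryo 16.

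Intraflagellar transport moves cargo along the cilium, and the BBSome rides on it. Of 14 listed genes of its B complex 10 were tested, 0 passed and 7 had a negative sign, with a median of -0.08. The B complex genes Ift27, Ift74 and Ift172 were listed with the syndrome genes above instead, at -0.21, -0.24 and 0.12. Ttc30a1 had the lowest difference, -0.55 (SE 0.08), with 8.34, 8.41 and 8.29 in homozygous embryos, against 8.87, 8.98 and 8.93 in heterozygous and 8.91 and 8.78 in wild type embryos. All 3 homozygous values lay below all others. Ift52 had the highest among the 10 tested genes of this list, 0.07 (SE 0.13), and was at -0.04 without embryo 16. Ift20, picked after its values were seen, was at -0.49 (SE 0.10), also without overlap. Of the A complex, which brings cargo back, 4 of 6 were tested, 0 passed and 3 had a positive sign, from -0.22 (SE 0.15) for Wdr35 to 0.36 (SE 0.30) for Wdr19. Both rest on embryo 16, without which Wdr35 was at -0.04 and Wdr19 at -0.0026. Wdr19 was at 6.86, 7.19 and 8.11 in homozygous embryos, against 6.60 to 7.61 in the others. Of the ciliary motor genes 3 of 7 were tested and 0 passed, from -0.22 (SE 0.09) for Kifap3 to 0.02 (SE 0.09) for Kif3b, Kif3b being at 0.01 without embryo 16.

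The transition zone gates entry to the cilium. Of its genes 11 of 14 were tested, 0 passed and 5 had a negative sign, with a median of 0.05. Tmem216 was at -0.43 (SE 0.10), with 10.50, 10.46 and 10.15 in homozygous embryos, against 10.86, 10.76 and 10.87 in heterozygous and 10.76 and 10.77 in wild type embryos. Homozygous embryos again lay below all others. Rpgrip1l was at 0.20 (SE 0.22).

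The CCT chaperonin, the partner of Mkks and Bbs12, was measured in full. Of its 8 genes 0 passed, 0 had an unadjusted p under 0.05, and differences ran from -0.14 (SE 0.12) for Cct8 to 0.12 (SE 0.16) for Tcp1, which has no value in embryo 16. A mixed list holds genes of BBSome partners and also the mTOR complex genes Mtor, Mapkap1 and Rictor. Of its genes 9 of 12 were tested, 0 passed and 5 had a negative sign. Differences ran from -0.40 (SE 0.15) for Rabl2, which has no value in heterozygous embryo 10, to 0.12 (SE 0.12) for Mtor. That list also holds Ccdc28a, the paralog of Ccdc28b, chosen for mention after its values were seen. Its brighter probe was at 7.16, 7.22 and 7.06 in homozygous embryos, against 7.47, 7.60 and 7.39 in heterozygous and 7.40 and 7.37 in wild type embryos, a difference of -0.30 (SE 0.09) with no overlap. Its other probe was above background on 1 homozygous and 1 other array and gives no direction.

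Of ciliary receptors and other BBSome cargo 4 of 10 were tested, 0 passed and 4 had a negative sign. The somatostatin receptor gene Sstr3, a BBSome cargo in neurons, was at -0.47 (SE 0.16), and Smo, the Hedgehog transducer, at -0.03 (SE 0.11). Without embryo 16 they were at -0.27 and 0.06. Of Hedgehog targets and factors 5 of 7 were tested, 0 passed, 3 had a negative sign and 2 a positive one. Gli3, a transcription factor of the pathway, was lowest at -0.40 (SE 0.19), and at -0.18 without embryo 16. Without that embryo Ptch1 was lowest, at -0.45. Sstr3 and Gli3 were dim, at 4.88 to 5.66 and 4.50 to 5.27 in homozygous embryos. The lowest level above background on those arrays was 3.40 to 4.39. Of the transcription factors of ciliogenesis 4 of 7 were tested and 0 passed, from -0.33 (SE 0.17) for Rfx2 to 0.07 (SE 0.14) for Rfx1, and without embryo 16 they were at -0.10 and 0.22.

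**Figure D3:**
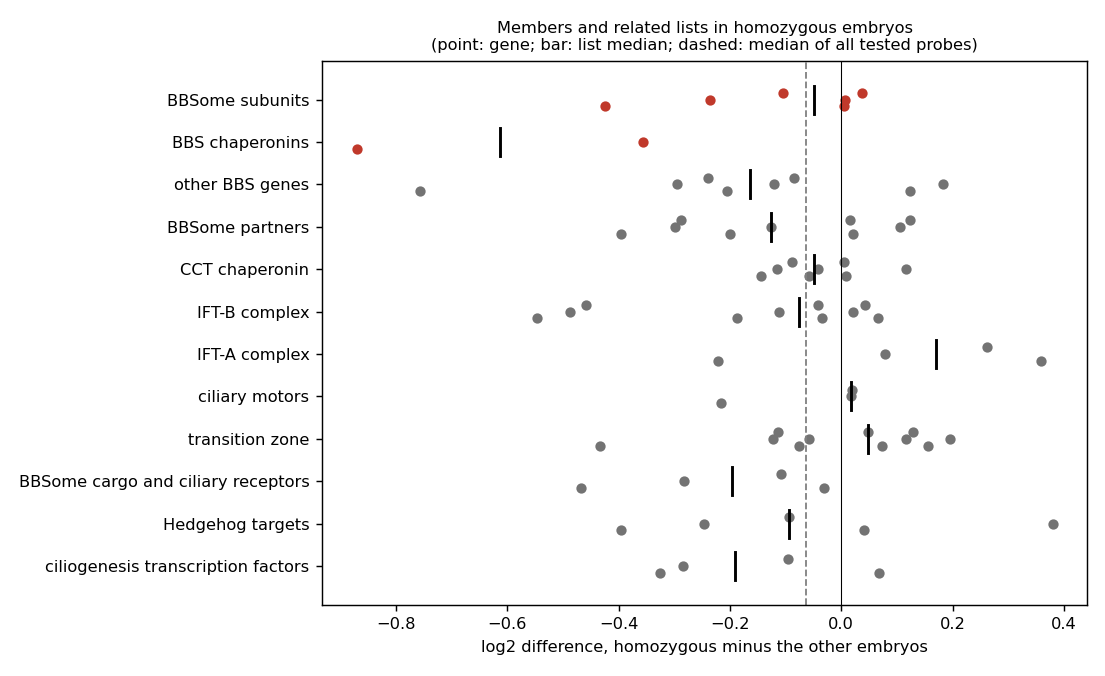
Log2 difference, homozygous minus other embryos (horizontal axis), of each tested gene, by list; points are genes, bars list medians, the dashed line the median of all tested probes. The 2 chaperonins had a list median of -0.61, and the 6 BBSome subunits one of -0.05. Without embryo 16 the chaperonins Bbs12 and Mkks were at -0.58 and -0.13.

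Markers of some cell types had lower levels in the same embryos, and heterozygous embryo 10 stood apart from the other non-homozygous ones. The mean log2 level of the 3 liver markers was 8.78, 8.52 and 7.99 in homozygous embryos 2, 7 and 16, against 9.42, 8.73 and 10.0 in heterozygous embryos 3, 10 and 15 and 9.91 and 10.3 in wild type embryos. That of the 2 macrophage markers with no missing value was 5.44, 4.04 and 4.09 in homozygous embryos, against 6.92, 4.63 and 7.24 in heterozygous and 6.93 and 7.29 in wild type embryos. These were C1qa and Mrc1, and Mrc1 was at the floor of 2.17 in homozygous embryo 7 and above background on 6 of 8 arrays. Embryo 10 lay within the homozygous range for the mean of these 2 macrophage markers and below embryo 2 for liver markers. The 4 others lay above every homozygous embryo for both. The macrophage marker C1qb, with no value in embryo 16, was at 8.41 and 7.35 in homozygous embryos 2 and 7. It was lower, at 6.01, in embryo 10, and at 9.02 to 9.40 in the 4 others. The 5 neuron markers, of cells that carry primary cilia, were at 9.54, 9.48 and 9.06 in homozygous embryos, against 9.82, 8.93 and 10.0 in heterozygous and 9.97 and 10.1 in wild type embryos, again with embryo 10 apart. At an unadjusted p under 0.05, 3 of 3 liver, 2 of 3 macrophage, 2 of 4 skeletal muscle and 1 of 5 neuron markers were lower, where 13.4% of all probes were, and 0 of the other lists. The 2 macrophage markers in this count were Mrc1 and C1qa, and C1qa was above background on 7 of 8 arrays. Markers dim in homozygous embryos can pass the filter through the other genotypes alone, so the filter partly sets this count. Without embryo 10 the member differences were -0.84 for Bbs12, -0.27 for Bbs9, -0.40 for Bbs7 and -0.40 for Mkks. The 4 neural progenitor markers were at 8.91 to 9.28 in homozygous embryos, against 9.03 to 9.27 in the others. The 3 tested markers of multiciliated cells were at 5.72 to 6.65 in homozygous embryos, against 6.29 to 6.57. The 4 skeletal muscle markers were at 6.67 to 7.21 in homozygous embryos, against 6.94 to 7.78, the 4 tested red cell markers at 12.7 to 12.9, against 12.6 to 12.9, and the 2 tested cardiomyocyte markers at 7.26 to 7.42, against 6.42 to 7.52. Every tested marker was above background on at least 1 array. The part of cell makeup in the members' values was not tested.

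**Figure D4:**
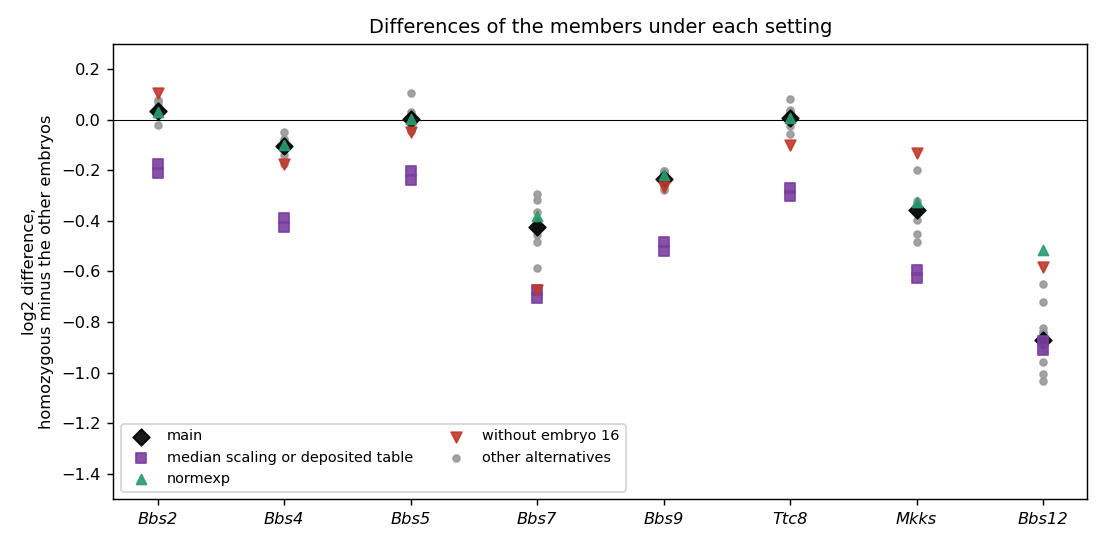
Log2 difference, homozygous minus other embryos (vertical axis), for each of the 8 genes under every setting run; diamonds are the values reported, squares the deposited table and median scaling, upward triangles normexp, downward triangles the fit without embryo 16, and grey points the other alternatives. Bbs12, Bbs9, Bbs7, Mkks and Bbs4 were below 0 in every setting, while Bbs2, Bbs5 and Ttc8 changed sign.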

How the data were processed

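RNA of whole dissected, frozen embryos was labelled with biotin as cRNA and read on one-colour CodeLink arrays, per the labels' protocols. Each deposited array file gives an intensity per spot, which in the values equals the spot's mean less the median of its surroundings. The deposited value table holds the same intensity divided by 1 factor per array, to within 5e-08. The sources used here name no scanner software or genome build. Spots marked contaminated, irregular or masked were set missing. Intensities were quantile normalized (limma 3.58.1, R 4.3.3), floored at the 5th percentile of positive values (4.50) and log2 transformed. A probe was tested if some genotype had it above background on every array (23389 probes), with lmFit and eBayes, two-sided, and Benjamini-Hochberg adjustment over all of them. Genotype means in 1 model gave 3 comparisons, and a second model set homozygous against the 5 other embryos. Nothing says whether embryos of a genotype share a litter, and p-values measure the spread between embryos. Symbols came from RefSeq accessions through a gene list of GRCm38.p6 (14763 of 34967 probes). The fit was tested on simulated data. No header or label gives a batch of more than 1 array. The members and lists were chosen with earlier results of these data known. All member probes are named, and for other lists the genes with the lowest and highest difference; others are marked as chosen after their values were seen, and 1 gene that the rule names is not reported here. For likeness, the 5 named probes with the highest Pearson r are given. Alternatives were other scalings, floors, filters, weights, priors and samples.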

Additional observations from a re-analysis of the deposited data

Results flagged for a closer look

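Among the 5 heterozygous and wild type embryos, 1 of the 8 members had an embryo set apart from the rest. Bbs2 in wild type embryo 11 was at 8.62, while the 4 others lay between 8.37 and 8.44, and this gap took up 0.732 of the group's range, against a critical value of 0.71. Chance gives such a gap in about 1 in 20 groups, and 8 were looked at. Groups of 3 or fewer arrays were not tested in this way.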

How the results depend on the processing

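No member passed in any of the 79 alternative fits of the 4 comparisons, where the lowest adjusted p of a member (limma) ranged from 0.0812 to 1. Of 632 recomputed member differences, 36 moved by more than the spread between replicates, all in comparisons of homozygous embryos (34 under median scaling or in the deposited table, 2 for Bbs12 under normexp). Another count is that of changed signs, also 36, all for members near 0: 17 in homozygous against the other embryos (Bbs2, Bbs5, Ttc8), 8 in homozygous against wild type, 10 in homozygous against heterozygous, and 1 in heterozygous against wild type. There Bbs5 was 0.0497 without heterozygous embryo 15, against -0.0432 with it and -0.104 to 0.0497 over the fits that leave out 1 embryo.

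The number of probes called among all those tested moved far more. In homozygous against the other embryos it was 25, against 42 under cyclic loess, 45 in the deposited table, 85 under normexp, 50 with probes above background on all 8 arrays, 6 with no filter, 110 with array weights and 118 with a trended robust prior. Leaving out 1 embryo gave 5 to 314: 314 without homozygous embryo 7, 39 without heterozygous 10, 14 without heterozygous 3, 6 without wild type 11, and 5 without wild type 13 or heterozygous 15. In homozygous against wild type it was 8, against 27 under median scaling, 20 under cyclic loess, 27 in the deposited table, 36 under normexp, 5 with a floor at the 1st percentile or with marked spots kept, 4 with no filter, 208 with array weights, 48 with the trended prior and 0 with only the groups compared, and 0 to 42 without 1 embryo. In homozygous against heterozygous it was 5, against 10 under median scaling, 9 under cyclic loess, 12 in the deposited table, 11 under normexp, 13 with array weights and 16 with the trended prior, and 4 to 58 without 1 embryo. In heterozygous against wild type it was 0, against 2 under median scaling or in the deposited table, 1 under cyclic loess, array weights or the trended prior, and 0 to 3 without 1 embryo. The cause was not tested.

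No paired analysis was possible because the embryo numbers are not shared between genotypes. A slide or scan block was not run, since no slide is named and each array has its own export time. With 2 wild type embryos, comparisons with them rest on the spread of all groups. Bbs12 lies closest to background, which limits its values most. Each gene has 1 probe, so no second probe checks a level.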
